A study of Homo sapiens with 15 samples.

Results

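Bacterial extracellular vesicles (BEVs) of *Staphylococcus aureus*, isolated by precipitation with epsilon-poly-L-lysine, were given to THP-1 cells, and the response of all measured genes is described here against cells given phosphate-buffered saline (PBS). The comparison rests on 6 of the 15 RNA-seq libraries of the series, chosen by their labels. These are 3 libraries of cells with 10 μg/mL of these BEVs (SPL), and 3 libraries of cells with PBS only, which received 0 μg/mL (PBS). For reference, SPL was also compared with 3 libraries of cells that received the same dose, 10 μg/mL, of vesicles pelleted by ultracentrifugation from *S. aureus* (SUC), and with 3 libraries of cells that received 1 μg/mL of *E. coli* vesicles obtained with poly-lysine (EPL). THP-1 is a monocytic cell line established from acute monocytic leukaemia, so all libraries come from 1 line grown in medium with serum and antibiotics. The study's methods give 6 h of incubation, whereas the labels give Day 0. No library of cells with poly-lysine alone was analysed here. Whether the 3 libraries of a group came from separate experiments is not stated. The p-values measure the spread between libraries within groups, which may be technical, estimated over all 15 libraries of the series. Those include 3 libraries of cells with 1 μg/mL of *E. coli* vesicles from ultracentrifugation (EUC).

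*S. aureus* is a Gram-positive bacterium, and its vesicles carry lipoproteins, peptidoglycan fragments, nucleic acids and secreted toxins. In monocytes, lipoproteins are recognised by TLR2 with TLR1 or TLR6, and muramyl dipeptide, a piece of peptidoglycan, by NOD2 in the cytoplasm. Through the adaptor MYD88 and the IRAK kinases these receptors release the NF-κB transcription factors and activate MAP kinases, which switch on genes of cytokines and chemokines. Type I interferon, released by the same cells or by their neighbours, acts through factors such as STAT2 and IRF9 on a separate set of genes with antiviral products.

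The 6 libraries held 14399421 to 15893402 counts each on genes. Levels are given as CPM, counts of a gene relative to all counts of its library, with library sizes scaled by TMM, and errors of levels are SDs over 3 libraries. Mitochondrial transcripts held 3.71% to 3.97% of the counts in PBS and 4.30% to 4.47% in SPL. Of the 15 libraries those of PBS and SPL were the most alike within their groups, with biological coefficients of variation of 0.0487 and 0.0575. The coefficient was 0.118 in the joint fit of all 15 libraries, on which the p-values rest, and 0.176 in EUC. Transcripts of monocytic cells were present in both groups, with CD33 at 82.8 ± 2.5 CPM in PBS and 62.5 ± 3.9 in SPL, CSF1R at 208 and 322, and CD4 at 279.9 and 301. CD14, the co-receptor of several TLRs, was low at 3.77 and 7.01 CPM. Of 8 T-cell genes none had enough counts to be tested, and the summed level of 3 natural killer cell genes was 23.9 to 26.9 CPM in PBS and 29.2 to 30.7 in SPL. The summed level of 3 B-cell genes was 9.21 to 10.3 CPM in PBS and 19.4 to 23.9 in SPL, where PAX5 and EBF1 rose (EBF1 by 4.83 on the log2 scale, and by 8.30 without PBS replicate 2). The 1 tested erythroid and platelet gene was not called. Of 5 epithelial and stromal genes 1 rose, COL1A1, and 0 fell, with a median log2 fold change of -0.64. Their summed level was the highest of these lists, at 308 to 316 CPM in PBS and 238 to 255 in SPL. The part of these genes in the results below was not tested.

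A gene was called when its adjusted p did not exceed 0.01 and its level differed by 2-fold or more, that is by 1 on the log2 scale. Of 17198 tested genes 1335 were higher in SPL than in PBS, which is 7.76% of them, and 637 were lower, which is 3.7%. In all 1972 of them the 3 SPL libraries lay outside the range of the 3 PBS libraries, as they did for 54.4% of all tested genes. The rises were larger than the falls. Among the higher genes the median fold was 4.56, and among the lower genes it was 2.70 in the other direction. A difference of 5 or more on the log2 scale was reached by 146 higher and 0 lower genes, and one of 3 or more by 421 and 20. Together the higher genes took 3.21% to 3.26% of the reads in PBS and 11.2% to 11.6% in SPL, and the lower genes 3.01% to 3.10% and 0.956% to 0.970%. Since RNA was taken from whole cultures, fewer responding cells and less RNA per cell cannot be told apart. The called genes had 1060 protein-coding genes up and 514 down of 13313 tested, and 207 long non-coding RNAs up and 102 down of 2598. In 63 of the higher genes no PBS library held a count, and in 87 the 3 PBS libraries held 1 to 3 counts.

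**Figure D1:**
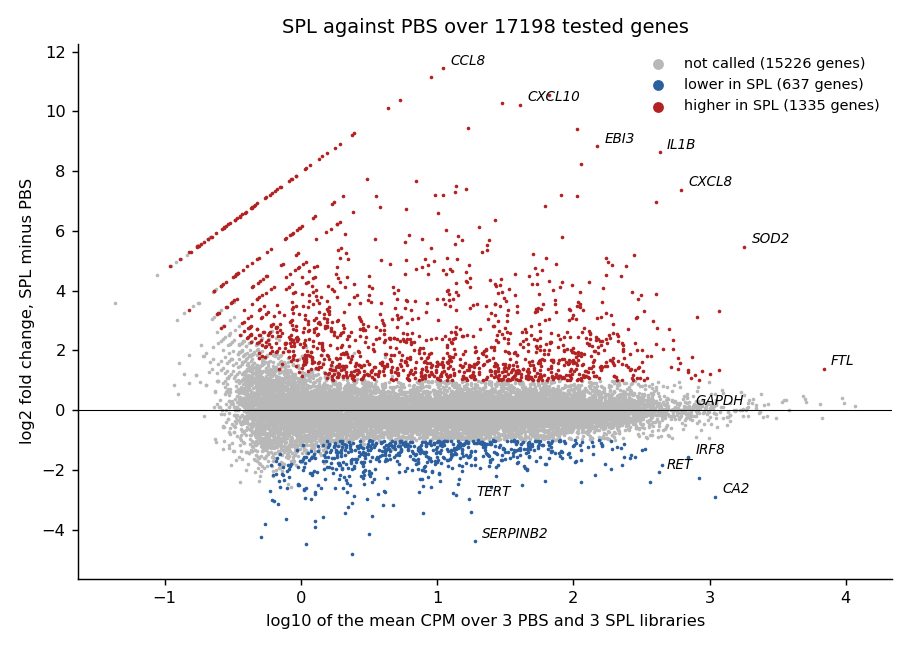
Each point is 1 of the 17198 tested genes, with the log10 of its mean CPM over the 3 PBS and 3 SPL libraries on the horizontal axis and its log2 fold change (SPL minus PBS) on the vertical axis. The 1335 higher genes in red reach further from 0 than the 637 lower genes in blue, and the oblique lines at the upper left are genes with very few counts in PBS.

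Most cytokines of the IL-1 family rose. IL1B, the pyrogenic cytokine that is cut to its active form by caspase-1, stood at 1.54, 2.71 and 2.21 CPM in the PBS libraries and at 950.1, 809.98 and 818 CPM in the SPL libraries. The groups were far apart, with a 396-fold higher mean in SPL (log2 fold change 8.63 ± 0.19, adjusted p = 4.04e-15). IL1A, its membrane-associated relative, had 0.128, 0.0588 and 0 CPM in PBS and 8.5, 7.34 and 6.96 CPM in SPL. With only 3 counts in PBS its ratio was 125-fold (95% interval 42.6 to 611), and its log2 fold change of 6.79 was 7.66 without PBS replicate 1. IL33, an alarmin, was without a count in PBS and at 1.79, 2.25 and 1.45 CPM in SPL, which is at least 30.3-fold higher against 3 counts over the PBS libraries. IL1RN, the natural antagonist of the IL-1 receptor, rose less, from 15, 16.6 and 17.9 CPM to 80.4, 78.6 and 69.8 CPM (log2 fold change 2.21 ± 0.10, adjusted p = 1.61e-11). Of 11 members of the list 6 had enough counts to be tested. IL33, without a count in PBS, was tested through its counts in groups with BEVs. Of the 6 tested members 5 rose and 0 fell, with a median log2 fold change of 6.67 beside -0.01 over all tested genes. This share and median depend in part on the count filter. The member that was not called is IL18, with 9.19 CPM in PBS and 7.72 CPM in SPL.

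Of 21 other interleukins and colony-stimulating factors 14 were tested, of which 10 rose and 0 fell, with a median log2 fold change of 3.37. As for the IL-1 family, the share and median depend in part on the count filter. IL6 and CSF3, silent in PBS, were tested through groups with BEVs. EBI3, the chain that IL-27 and IL-35 share, went from 0.576, 0.823 and 0.537 CPM to 318, 309.9 and 267 CPM (log2 fold change 8.83 ± 0.24, adjusted p = 2.59e-14). Every SPL library lay far above every PBS library. IL23A, the private chain of IL-23, was at 3.52, 2.47 and 3.16 CPM in PBS and 79.2, 70.1 and 64.9 CPM in SPL, a 23.4-fold difference. IL12B, the chain that IL-12 and IL-23 share, had 0.064, 0.176 and 0.119 CPM and 6.9, 5.02 and 8.62 CPM (log2 fold change 5.72 ± 0.45, adjusted p = 1.82e-08). IL6, an inducer of the acute phase response, had no count in the PBS libraries and only 0.958, 0.515 and 0.483 CPM in the SPL libraries. It was at least 10.8-fold higher and stayed under 1 CPM in every SPL library. CSF3, the growth factor of neutrophils, was likewise without a count in PBS and had 0.319, 0.258 and 0.483 CPM in SPL, at least 5.77-fold higher. IL15 (0.266 and 0.677 CPM), OSM (8.22 and 16.4 CPM), IL27 and IL16 did not pass both thresholds.

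**Figure D2:**
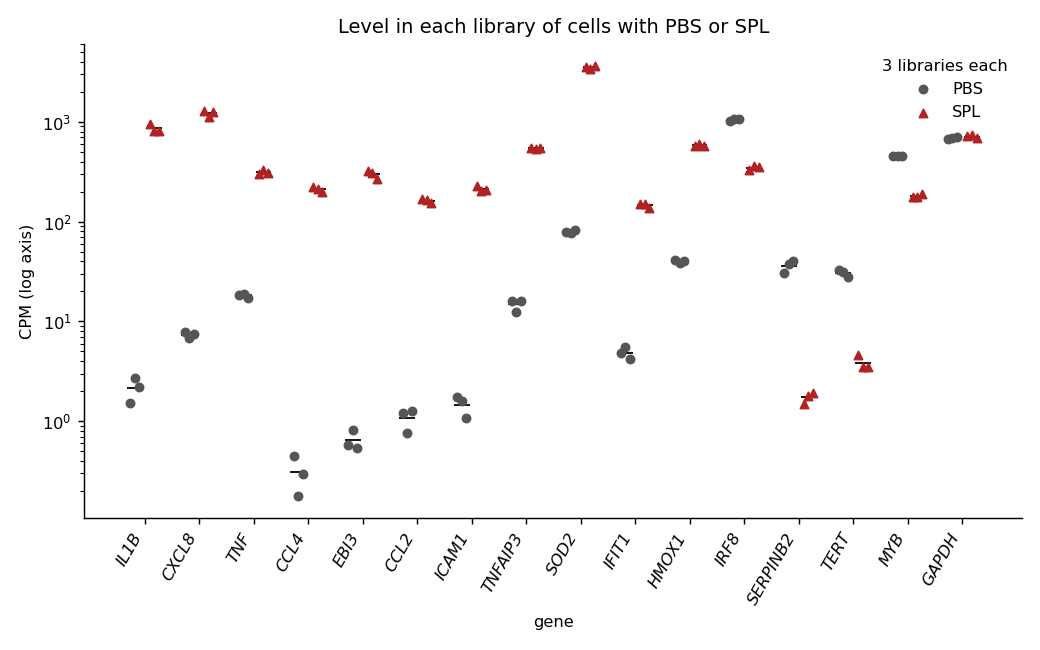
Points give the CPM of 16 genes in each of the 3 PBS libraries (grey circles) and 3 SPL libraries (red triangles) on a log axis, and short lines give the group means. For IRF8, SERPINB2, TERT and MYB the SPL libraries lie under the PBS libraries, for GAPDH both groups lie between 668 and 730 CPM, and for the other genes the SPL libraries lie above.

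Most tested chemokines, which guide leukocytes to a site of infection, rose. Of 15 CXC chemokines 12 were tested, of which 11 rose and 0 fell, with a median log2 fold change of 5.67. Members nearly silent in PBS, such as CXCL9 and CXCL10, were tested through their counts in groups with BEVs. The share and median therefore depend in part on the count filter. The summed level of the tested members was 11.9 to 12.7 CPM in PBS and 1330 to 1542 CPM in SPL. CXCL8 (interleukin-8), the main attractant of neutrophils, had 7.81, 6.88 and 7.45 CPM in PBS and 1292, 1107 and 1265 CPM in SPL. Its mean was 165-fold higher (log2 fold change 7.37 ± 0.16, adjusted p = 4.04e-15). CXCL1, CXCL2 and CXCL3, neutrophil attractants from neighbouring genes, had mean levels of 0.89, 0.993 and 0.219 CPM in PBS and of 46.9, 45.8 and 11.4 CPM in SPL. In PBS the highest library of these 3 genes held 1.02 CPM, so the groups lay far apart. CXCL10, CXCL9 and CXCL11 attract T cells through the receptor CXCR3. CXCL10 was at 0.064, 0.118 and 0 CPM in PBS, from 3 counts, and at 77.9, 82.7 and 83.5 CPM in SPL, a ratio of 1339-fold (95% interval 458 to 6496). CXCL11 was at 0.192, 0.0588 and 0.0596 CPM and 11.7, 10.2 and 13.2 CPM, and CXCL9 at 0 counts and 1.66, 0.966 and 1.24 CPM. Single libraries weighed on these low PBS levels, since the log2 fold change of CXCL10 was 10.21 with all libraries and 11.04 without PBS replicate 2, and that of CXCL11 6.74 and 7.44 without PBS replicate 1. CXCL12, which keeps blood stem cells in the marrow, was at 0.192, 0.235 and 0 CPM in PBS and 29.8, 26.9 and 25.4 CPM in SPL (log2 fold change 7.51 ± 0.33, adjusted p = 7.90e-12). Only CXCL16 was not called (2.27 and 3.02 CPM). The 9 tested genes of this family on chromosome 4 all rose.

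Of 19 CC chemokines 15 were tested, of which 12 rose and 0 fell, with a median log2 fold change of 5.10. Here too the share and median depend in part on the count filter, since CCL8 was silent in PBS. CCL4 and CCL3, attractants of monocytes and T cells, had means of 0.307 ± 0.136 and 0.982 ± 0.415 CPM in PBS and of 212 ± 12.5 and 24.6 ± 3.04 CPM in SPL. Their near-identical copies CCL4L2 and CCL3L3 were at 134 ± 15.1 and 123 ± 12.9 CPM in SPL. How the reads were divided between the copies is uncertain, and 74.6% of the exonic bases of CCL3 lie in exons of another gene. CCL2, an attractant of monocytes, rose from 1.22, 0.765 and 1.25 CPM to 167, 163 and 153 CPM (log2 fold change 7.22 ± 0.21, adjusted p = 4.52e-14). CCL8, which also attracts monocytes, had no count in PBS and 25.6, 20.1 and 21 CPM in SPL, at least 367-fold higher. Its fitted log2 fold change of 11.44 was the largest among called protein-coding genes of at least 5 CPM. This fitted value rests on 0 counts in PBS, so the order of the largest rises is uncertain. CCL5, a T-cell attractant, was already at 48.6, 51.3 and 53.7 CPM in PBS and stood at 194, 194 and 172 CPM in SPL, a smaller difference of 3.65-fold. CCL20, which binds CCR6, was at 0.282 CPM in PBS and 15.3 CPM in SPL. CCL13, CCL22 and CCL23 were not called, with 0.337, 7.63 and 4.17 CPM in SPL. On chromosome 17, 9 of 11 tested CC chemokine genes rose.

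The promoters of these genes were searched for a short motif bound by NF-κB, the factor downstream of the TLRs. The motif was GGNNTTTCC, read on both strands, in the 250 bases before the start of each gene in RefSeq (GRCh38.p14), and no other motif was searched. It was present in 5.48% of 27305 promoters of this length. Of the 1335 higher genes 843 had a promoter in the table, and 109 of these (12.9%) held it. Among the lower genes 22 of 415 (5.30%) held it, and among tested genes that were not called 565 of 10174 (5.55%). Of the 11 CXC chemokines that rose, 7 held it, and of the CC chemokines 1 of 8 with a promoter. Among NF-κB subunits and inhibitors that rose, 4 of 6 held it, and among the genes that restrain NF-κB, 4 of 10. Among the other families, counting members that rose and had a promoter, 3 of 5 other interleukins and colony-stimulating factors held it, 1 of 5 TNF ligands, 1 of 7 NRF2 targets, 3 of 27 interferon-stimulated genes (11.1%) and 0 of 4 members of the IL-1 family. A match is a description of these letters and not a site at which binding was measured. The printed stretches run 5′ to 3′ on the strand of the gene and end before the gene's start. They are shown because CXCL1, CXCL2 and CXCL3 hold 2 copies each in nearly the same surroundings, while CXCL8, CXCL10, IL6 and NFKB1 hold 1 and TNFAIP3, whose product restrains NF-κB, holds 2. Capitals mark the motif on either strand.
CXCL8, chr4:73740443-73740521, plus strand: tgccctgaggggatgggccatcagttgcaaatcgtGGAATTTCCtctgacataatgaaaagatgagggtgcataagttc
CXCL1, chr4:73869280-73869383, plus strand: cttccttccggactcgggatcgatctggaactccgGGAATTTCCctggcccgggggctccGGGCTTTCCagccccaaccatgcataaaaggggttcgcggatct
CXCL2, chr4:74099205-74099307, minus strand: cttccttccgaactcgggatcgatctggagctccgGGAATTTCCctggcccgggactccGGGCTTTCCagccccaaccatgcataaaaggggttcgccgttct
CXCL3, chr4:74038699-74038802, minus strand: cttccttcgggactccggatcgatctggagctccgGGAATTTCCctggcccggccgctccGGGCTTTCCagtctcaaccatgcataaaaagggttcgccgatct
CXCL10, chr4:76023630-76023708, minus strand: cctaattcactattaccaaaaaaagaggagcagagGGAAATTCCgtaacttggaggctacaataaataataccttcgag
IL6, chr7:22727093-22727171, plus strand: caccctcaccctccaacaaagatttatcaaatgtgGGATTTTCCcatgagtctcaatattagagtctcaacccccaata
NFKB1, chr4:102501276-102501354, plus strand: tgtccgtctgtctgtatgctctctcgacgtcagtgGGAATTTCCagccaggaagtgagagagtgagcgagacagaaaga
TNFAIP3, chr6:137867157-137867247, plus strand: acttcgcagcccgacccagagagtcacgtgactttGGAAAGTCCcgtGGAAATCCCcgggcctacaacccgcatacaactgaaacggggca

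Ligands of the TNF family rose in 6 of 12 tested members and fell in 1. TNF itself, the cytokine that activates endothelium and macrophages, was at 18.3, 19 and 17.3 CPM in PBS and 300.4, 328 and 309.96 CPM in SPL (log2 fold change 4.10 ± 0.14, adjusted p = 2.71e-13). LTA and LTB, the lymphotoxins, were at 1.11 and 11.5 CPM in PBS and at 9.68 and 55 CPM in SPL, and TNFSF15, a ligand of death receptor 3, rose 12.3-fold. TNFSF11 (RANKL), the signal that forms osteoclasts, fell from 3.01, 2.24 and 1.79 CPM to 0.958, 0.451 and 0.758 CPM. Of 14 receptors of the family 7 rose and 0 fell. The costimulatory receptor TNFRSF18 (GITR) was at 0.192, 0.235 and 0.0596 CPM in PBS and 31, 24.1 and 26.3 CPM in SPL, and TNFRSF9 (4-1BB), another one, at 0.192, 0.176 and 0.656 CPM and 23, 22.4 and 23.1 CPM. Without PBS replicate 3 the log2 fold change of TNFRSF9 was 6.89 instead of 6.02. CD40, the receptor for help from T cells, rose from 4.99, 4.12 and 4.29 CPM to 113, 102 and 98.1 CPM (log2 fold change 4.54 ± 0.13, adjusted p = 6.46e-14). The TNF receptors themselves moved less, with TNFRSF1B at 89 and 251 CPM, called, and TNFRSF1A at 93.9 and 127 CPM, not called. For other cytokines, 7 of 22 tested receptor chains rose and 0 fell, among them IL7R, the receptor of interleukin-7, from 1.47, 1.0 and 0.775 CPM to 137, 108 and 126 CPM, and IL10RA, the ligand-binding chain for interleukin-10, from 11.5, 14.1 and 12.6 CPM to 267, 242 and 237 CPM.

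Of 14 subunits, inhibitors and kinases of NF-κB 8 rose and 0 fell, with a median log2 fold change of 1.39. NFKB2, the subunit of the non-canonical pathway that is made as a long precursor, was at 29.6, 33.8 and 33.1 CPM in PBS and 533, 505 and 476 CPM in SPL. Its partner RELB rose from 20.9, 21.5 and 24.3 CPM to 186, 194 and 180.01 CPM. NFKB1 rose 5.8-fold, to 365, 347 and 349.9 CPM, whereas RELA was at 99.7 ± 2.22 CPM in PBS and 108 ± 2.45 CPM in SPL and was not called (log2 fold change 0.12 ± 0.08, adjusted p = 0.271). NFKBIA, the inhibitor IκBα that is resynthesised after each activation, rose from 57.1, 56.7 and 66.9 CPM to 525, 529.7 and 524 CPM (log2 fold change 3.13 ± 0.14, adjusted p = 7.90e-12). NFKBIZ and BCL3, atypical inhibitors that act in the nucleus, rose 19.8-fold and 12.2-fold. The kinase genes CHUK, IKBKB and IKBKG had log2 fold changes of 0.34 ± 0.09, 0.05 ± 0.08 and 0.53 ± 0.12 and were not called.

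Genes whose products restrain NF-κB rose in 10 of 14 tested members, with 0 falls and a median log2 fold change of 1.64. TNFAIP3 (A20), which edits ubiquitin chains on signalling proteins, was at 16, 12.5 and 16 CPM in PBS and 541, 539.9 and 548 CPM in SPL, 36.6-fold higher (log2 fold change 5.19 ± 0.12, adjusted p = 4.78e-15). Its partner TNIP1 was at 134, 129 and 134 CPM and 894, 897 and 844 CPM, and its relative TNIP3 rose from 0.204 to 20.3 CPM. BIRC3 (cIAP2), a ubiquitin ligase, rose from 0.064, 0.294 and 0.179 CPM to 33.9, 30.1 and 32.7 CPM, while BIRC2 was at 43.7 and 61.3 CPM and was not called. Genes that destroy or hold back cytokine mRNAs were called in 4 of 11 tested members, all higher. ZC3H12A (regnase-1), an endonuclease that cuts IL-6 mRNA, rose from 14, 15.9 and 13.1 CPM to 329, 348 and 322 CPM (log2 fold change 4.54 ± 0.09, adjusted p = 1.51e-15). ZFP36 (tristetraprolin) was at 224 ± 7.41 CPM in PBS and 230.4 ± 26.4 CPM in SPL, with no called change.

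The receptors that sense Gram-positive bacteria differed among themselves. Of 12 tested members 5 rose and 0 fell. TLR2, the receptor of lipoproteins, was at 68.6 ± 5.79 CPM in PBS and 123 ± 5.93 CPM in SPL (log2 fold change 0.84 ± 0.08, adjusted p = 2.84e-07), and TLR6 was at 7.62 ± 1.51 and 14.5 ± 0.774 CPM (log2 fold change 0.93 ± 0.17, adjusted p = 4.34e-04). Both passed the threshold on p and lay under the threshold on fold. TLR1 rose from 3.46, 2.71 and 2.21 CPM to 9.39, 8.69 and 9.86 CPM (log2 fold change 1.74 ± 0.19, adjusted p = 1.42e-06). NOD2, the sensor of muramyl dipeptide, rose from 9.66, 9.06 and 10.6 CPM to 31.3, 28.9 and 29.5 CPM, whereas NOD1 (19.6 and 17.5 CPM) and RIPK2, their kinase (17.5 and 20.3 CPM), were not called. CD36, a co-receptor of TLR2 and a transporter of fatty acids, rose 3.4-fold, and CLEC7A (dectin-1), a receptor of β-glucans, rose from 0.225 to 7.51 CPM. Of the other TLRs, TLR7 and TLR8, which read RNA in endosomes, rose from 0.265 and 0.10 CPM to 2.95 and 2.43 CPM. TLR4, the receptor of lipopolysaccharide, was at 24.8 and 49.4 CPM (log2 fold change 1.00 ± 0.11, adjusted p = 1.73e-06) and lay just under the threshold on fold. Among 15 adaptors and kinases 5 rose and 0 fell, led by IRAK2 (1.66, 2.06 and 1.85 CPM in PBS and 27.7, 35.4 and 35.1 CPM in SPL), and MYD88 rose 3.79-fold.

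The inflammasome genes went in both directions, with 2 of 13 tested members higher and 3 lower, beside 7.76% and 3.7% of all tested genes. CASP1, the protease that matures IL-1β, was at 49, 43.9 and 45 CPM in PBS and 95.5, 95.9 and 93.6 CPM in SPL (log2 fold change 1.05 ± 0.10, adjusted p = 4.29e-07), close to the threshold on fold. NLRP3, the sensor, was at 164 ± 2.04 CPM and 179 ± 9.09 CPM and was not called (log2 fold change 0.13 ± 0.08, adjusted p = 0.208). PYCARD (ASC), the adaptor that joins sensor and protease, fell from 57.5, 66 and 67.9 CPM to 28.2, 34.1 and 27.6 CPM (log2 fold change -1.09 ± 0.22, adjusted p = 9.36e-04). Exons of other genes cover 59.7% of the exonic bases of PYCARD and 66% of those of NLRP3, so that their counts are uncertain. NLRP12, which restrains inflammatory signalling, fell from 20.3, 21.9 and 21.7 CPM to 8.5, 9.6 and 10.8 CPM, and NLRP1 fell from 2.05, 3.18 and 3.22 CPM to 0.894, 1.09 and 1.38 CPM, a call that was lost in 4 of the 6 fits without 1 library, with adjusted p up to 0.0181 (without SPL replicate 1). AIM2, a sensor of DNA, had 1 count in PBS and 0.511, 0.837 and 0.62 CPM in SPL, a ratio of 32.4-fold (95% interval 5.39 to 1323).

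Receptors for staphylococcal toxins and peptides rose in 3 of 14 tested members and fell in 2, beside 7.76% and 3.7% of all tested genes. C5AR1, a receptor of Panton-Valentine leukocidin, rose from 1.54, 0.941 and 1.67 CPM to 8.56, 7.15 and 6.62 CPM, and the formyl peptide receptor FPR1 rose from 0.32, 0.823 and 0.596 CPM to 3.07, 2.96 and 2.0 CPM. CXCR2, a chemokine receptor that binds leukocidin ED, fell from 18.6, 18.6 and 19.6 CPM to 5.81, 8.05 and 6.27 CPM (log2 fold change -1.49 ± 0.16, adjusted p = 1.32e-06). ADAM10, the receptor of α-toxin, was at 117 ± 5.83 CPM in PBS and 127 ± 12 CPM in SPL and was not called.

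Interferon-stimulated genes rose in 34 of 35 tested members, with 0 falls and a median log2 fold change of 3.30. Their summed level was 840 to 853 CPM in the PBS libraries and 5560 to 5898 CPM in the SPL libraries. IFIT1, which binds foreign RNA caps, was at 4.8, 5.53 and 4.17 CPM in PBS and 149, 149.9 and 137 CPM in SPL (log2 fold change 4.91 ± 0.13, adjusted p = 2.94e-14). MX1, a GTPase that blocks viruses, rose from 5.44, 5.47 and 4.23 CPM to 99.3, 97.1 and 85.4 CPM, and OAS3, a sensor of double-stranded RNA, from 57.3, 48.2 and 46.7 CPM to 781, 778 and 716 CPM. ISG15, a ubiquitin-like modifier, rose from 30.3, 30.2 and 33.7 CPM to 273, 282 and 248 CPM. In each of these genes every SPL library lay above every PBS library. The member that was not called is BST2 (tetherin), with 156 ± 10.4 CPM in PBS and 245 ± 17.7 CPM in SPL (log2 fold change 0.66 ± 0.16, adjusted p = 0.00439). All 5 tested guanylate-binding proteins, GTPases that attack vacuoles of bacteria, rose as well, with GBP5 at 0.32, 0.353 and 0.537 CPM and 16.4, 19 and 18 CPM.

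The transcript of interferon-β itself was scarce. IFNB1 was at 0.192, 0.118 and 0 CPM in PBS and 0.192, 0.451 and 0.0689 CPM in SPL, and the groups were not called different (log2 fold change 1.18 ± 1.01, adjusted p = 0.413). Of the factors downstream of the interferon receptor, STAT2 rose 5.17-fold and IRF9 rose 3.76-fold. IRF7, which amplifies interferon production, rose from 35.6, 33.9 and 39.2 CPM to 235, 235 and 207 CPM (log2 fold change 2.64 ± 0.15, adjusted p = 2.86e-10). STAT4, which relays IL-12, rose 23.7-fold. SOCS3 and SOCS1, feedback inhibitors of cytokine receptors, rose 9.72-fold and 2.08-fold, while SOCS2 fell from 1.86, 2.06 and 2.03 CPM to 0.319, 0.258 and 0.758 CPM and CISH from 15.2 ± 0.224 CPM to 6.88 ± 1.44 CPM. Without SPL replicate 3 the log2 fold change of SOCS2 was -2.74 instead of -2.15, its call was lost without SPL replicate 1 or 2 (adjusted p = 0.0164 in both), and that of CISH without SPL replicate 1 (-0.98). IRF8, a factor that directs monocyte development, had one of the largest losses in CPM, from 1029.6, 1063 and 1057 CPM to 329.6, 358 and 354 CPM (log2 fold change -1.60 ± 0.09, adjusted p = 2.41e-10). In all, 10 of 20 tested members of this list rose and 3 fell.

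**Figure D3:**
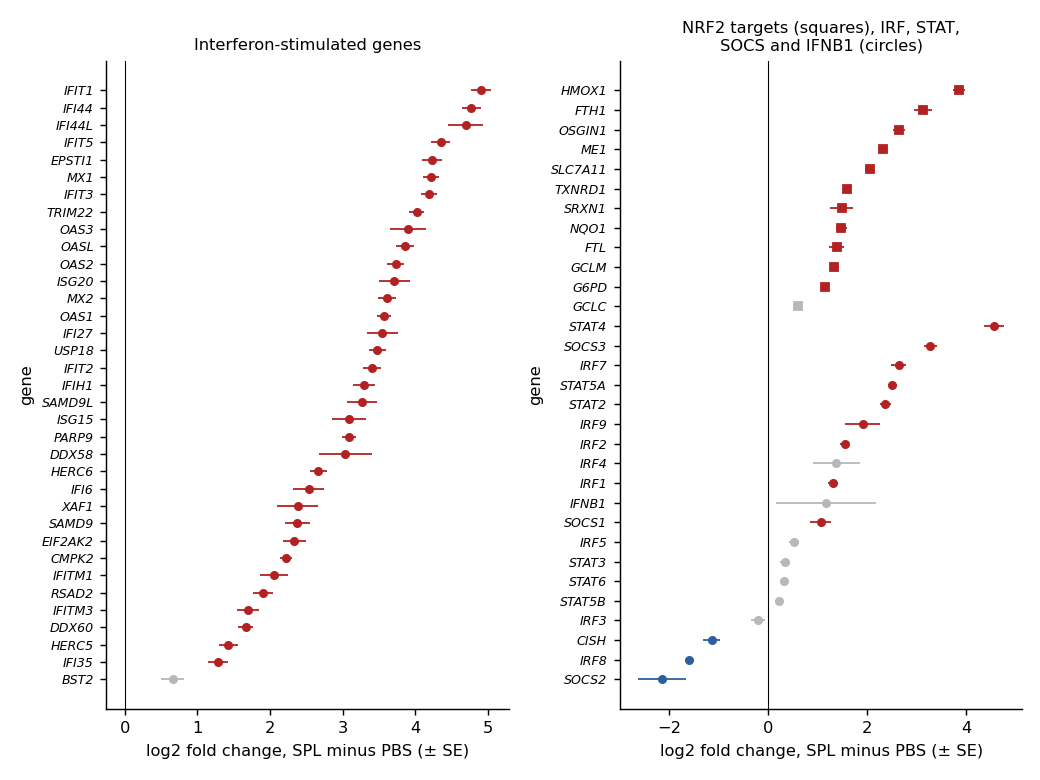
Points give the log2 fold change (SPL minus PBS) of tested genes and bars its SE, in red for higher, blue for lower and grey for genes not called. All 35 interferon-stimulated genes on the left lie to the right of 0. On the right, squares are NRF2 targets and circles IRF, STAT and SOCS genes and IFNB1, which has a wide bar, at 1.18 ± 1.01, while the 3 genes called lower, IRF8, CISH and SOCS2, lie to the left of 0.

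Among AP-1, ATF, EGR and related transcription factors 12 of 20 tested members rose and 1 fell. JUN rose from 41.1, 37.7 and 35.9 CPM to 244, 221 and 215 CPM, and ATF3, a stress-induced repressor of cytokine genes, rose 16.5-fold. FOSL2 was the member that fell, from 138, 136 and 132 CPM to 54, 51.7 and 46.2 CPM. EGR1, an early gene of growth factor signalling, was at 303 ± 11.1 and 245 ± 8.55 CPM and was not called. Dual-specificity phosphatases, which switch MAP kinases off, rose in 5 of 10 tested members, among them DUSP1 (11.1-fold) and DUSP6 (24.1, 19.4 and 19.8 CPM in PBS and 218, 203 and 226 CPM in SPL). The MAP kinases and their activating kinases had 0 of 15 members higher and 1 lower, beside 7.76% and 3.7% of all tested genes. The lower member was MAP2K6, an activator of p38, at 4.03, 4.35 and 3.22 CPM in PBS and 0.383, 0.386 and 0.276 CPM in SPL.

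Genes of costimulation and maturation of antigen-presenting cells rose in 10 of 14 tested members and fell in 0. SLAMF7, a surface receptor of activated leukocytes, was at 0.704, 0.765 and 0.775 CPM in PBS and 236, 217 and 229 CPM in SPL (log2 fold change 8.23 ± 0.16, adjusted p = 7.66e-16). CD80, a ligand of CD28 on T cells, had 2 counts in PBS and 8.88, 5.73 and 6.48 CPM in SPL, a ratio of 174-fold (95% interval 47.8 to 1444), whereas CD86, the other ligand, was at 0.426 and 0.398 CPM and was not called. CD274 (PD-L1), which inhibits T cells, rose from 0.704, 0.647 and 0.417 CPM to 8.18, 9.53 and 9.24 CPM. ICAM1, an adhesion molecule bound by leukocyte integrins, rose from 1.73, 1.59 and 1.07 CPM to 226, 204 and 208 CPM, and CD44, a receptor of hyaluronan, from 59.4, 58.1 and 61.9 CPM to 606, 587 and 616 CPM. CD83, a marker of mature dendritic cells, rose 10.0-fold.

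The machinery of antigen presentation moved less. For MHC class I, 3 of 16 tested members rose and 0 fell, namely the peptide transporter TAP1 (5.04-fold), the chaperone TAPBP (2.58-fold) and HLA-F (3.35-fold). HLA-B, HLA-C and B2M had log2 fold changes of 0.94 ± 0.16, 0.56 ± 0.17 and 0.93 ± 0.13 and were not called, and reads of near-identical HLA genes may have been divided among them. For MHC class II, 3 of 10 rose and 0 fell. HLA-DRA was at 2.43, 3.12 and 3.7 CPM in PBS and 7.47, 7.6 and 6.76 CPM in SPL, and CIITA, the master activator of this class, was at 4.88 and 9.96 CPM (log2 fold change 1.03 ± 0.28, adjusted p = 0.00888), close to both thresholds. The call of CIITA was lost in 6 of 6 fits without 1 library (adjusted p 0.0122 to 0.048) and that of HLA-DPA1 in 5 (0.0106 to 0.0352).

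Lipid mediators and the metabolism of activated macrophages changed at selected enzymes. PTGS2 (cyclooxygenase-2), the inducible enzyme of prostaglandin synthesis, rose from 1.09, 1.06 and 0.835 CPM to 9.65, 5.67 and 9.65 CPM (log2 fold change 3.06 ± 0.23, adjusted p = 9.02e-09), and PTGS1, the constitutive enzyme, was at 30.2 and 47.4 CPM and was not called. Of 16 tested genes of prostaglandins and leukotrienes 8 rose and 0 fell, and PLA2G7, which degrades platelet-activating factor, had 1 count in PBS and 7.6, 4.38 and 6.27 CPM in SPL (log2 fold change 7.75, and 9.57 without PBS replicate 1). Of 19 tested genes of immunometabolism 10 rose and 0 fell. SOD2, the superoxide dismutase of mitochondria, made the largest gain in CPM but for FTL, from 78.2, 76.9 and 82.3 CPM to 3534, 3351 and 3669 CPM, 44.5-fold (log2 fold change 5.47 ± 0.13, adjusted p = 4.78e-15). ACOD1, which makes itaconate, had no count in PBS and 1.92, 1.22 and 2.0 CPM in SPL, and IDO1, which degrades tryptophan, no count and 1.72, 0.837 and 1.65 CPM. KYNU, the next step of tryptophan breakdown after kynurenine, rose from 15.5, 15.6 and 16.9 CPM to 178, 163 and 164 CPM. SLC2A6, a lysosomal hexose transporter, rose from 19.7, 16.8 and 20.2 CPM to 432, 431 and 416 CPM, whereas the glucose transporter SLC2A1 (368 and 348 CPM) was not called. Of 18 glycolytic genes 1 rose and 0 fell, beside 7.76% and 3.7% of all tested genes. The member that rose was PKM, the last kinase of the pathway (668 to 1698 CPM). GAPDH was at 668, 686 and 705 CPM in PBS and 715, 730.3 and 685 CPM in SPL (log2 fold change 0.05 ± 0.07, adjusted p = 0.635), with overlapping libraries. The NADPH oxidase, which makes superoxide in phagocytes, rose in 3 of 6 members, with CYBB, its catalytic chain, at 9.02, 8.41 and 10.3 CPM and 99.5, 90.8 and 99.6 CPM.

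Targets of NRF2, the regulator of antioxidant genes, rose in 11 of 12 tested members and fell in 0, with a median log2 fold change of 1.54. Their summed level was 4788 to 4932 CPM in PBS and 13939 to 14916 CPM in SPL. FTL, which stores iron with FTH1, made the largest gain of all genes in CPM, from 3739.6, 3822 and 3906 CPM to 9909, 10617 and 9367 CPM (log2 fold change 1.38 ± 0.15, adjusted p = 9.37e-07). FTH1, the heavy chain, rose from 166, 176 and 155 CPM to 1754, 1210.4 and 1381 CPM. Both have many processed pseudogenes, and exons of other genes cover 63.2% of the exonic bases of FTH1, so that their counts are uncertain. HMOX1 (heme oxygenase-1) rose from 41.3, 38.6 and 40.4 CPM to 575, 606 and 567 CPM, 14.5-fold (log2 fold change 3.86 ± 0.13, adjusted p = 1.83e-13). TXNRD1, which reduces thioredoxin, rose 3.02-fold, and SLC7A11, which imports cystine for glutathione, 4.14-fold. GCLC, the catalytic chain of glutathione synthesis, was at 27.1 ± 2.08 and 41 ± 3.45 CPM and was not called. Metallothioneins and their regulators rose in 4 of 8 tested members. MT2A, which binds zinc and copper, rose from 16.8, 16.2 and 18.8 CPM to 218, 193 and 176 CPM, while MT1X, MT1G, MT1F and MT1M were not called.

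Genes of lipid droplets and PPAR targets rose in 4 of 15 tested members and fell in 0. PLIN2, the coat protein of lipid droplets, rose from 47.3, 50.3 and 51.4 CPM to 250.01, 216 and 203 CPM (log2 fold change 2.17 ± 0.12, adjusted p = 2.50e-10). PDK4, a kinase that inhibits the pyruvate dehydrogenase complex in mitochondria, rose from 0.832, 1.47 and 1.49 CPM to 10.5, 7.34 and 8.89 CPM (log2 fold change 2.80 ± 0.29, adjusted p = 6.83e-07). ACSL1, which activates fatty acids, rose from 110.00, 107 and 101 CPM to 732, 682 and 727 CPM. CPT1A (159 and 152 CPM), LPL (15.7 and 16.7 CPM) and ANGPTL4 (0.34 and 0.87 CPM) were not called. For cholesterol synthesis, 0 of 23 rose and 1 fell, SREBF1, from 78.6, 84.4 and 80.4 CPM to 31.7, 36.7 and 41.4 CPM. Among 8 genes of LXR and cholesterol efflux, SCD, the stearoyl-CoA desaturase, fell from 234, 222 and 224 CPM to 98.9, 98.1 and 102 CPM, and MYLIP, which degrades the LDL receptor, fell 3.01-fold, with 0 rises. Lysosomal genes were called in 3 of 23 tested members, all higher, among them PSAP, the precursor of the saposins (603 to 1399.7 CPM). Shares over all tested genes were 7.76% higher and 3.7% lower.

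**Figure D4:**
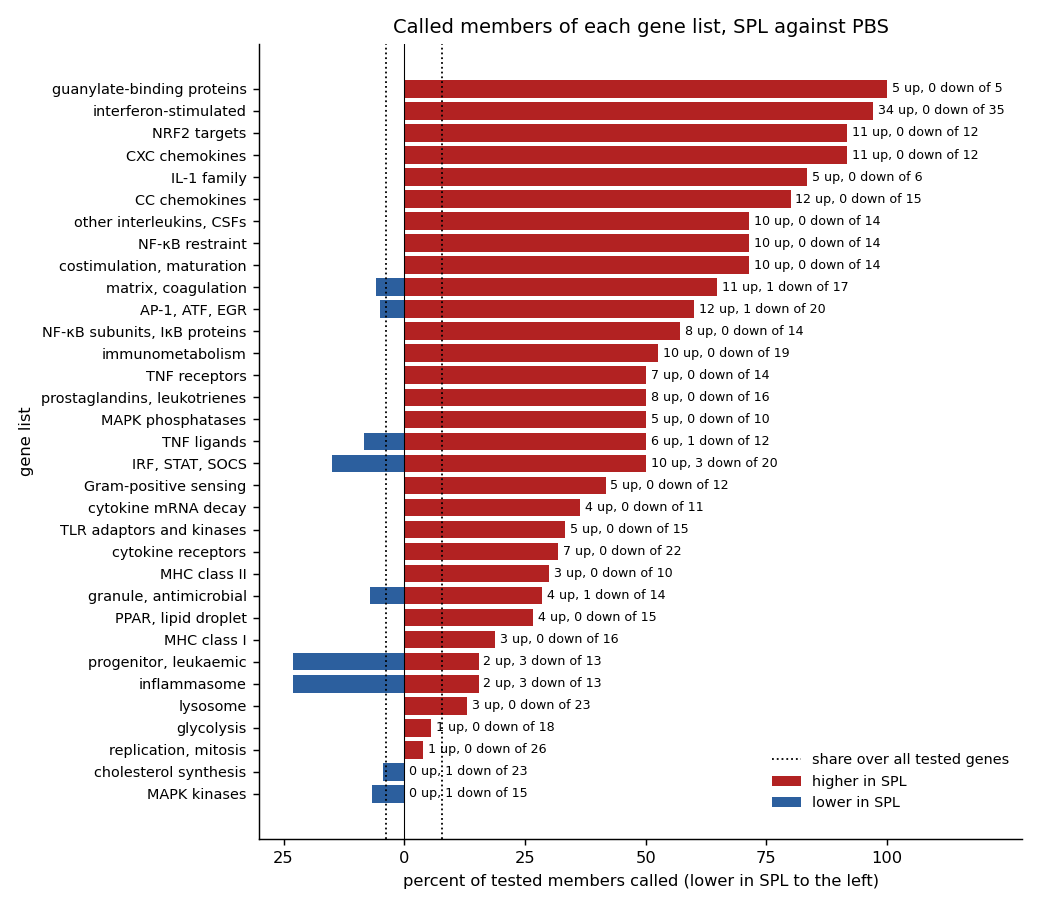
Bars give the percent of tested members of 33 gene lists that were called higher (red, to the right) or lower (blue, to the left) in SPL than in PBS, with the counts beside them. Dotted lines mark the shares over all tested genes, 7.76% higher and 3.7% lower, and 29 lists reach past the line on the right.

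Genes of the matrix, coagulation and fibrinolysis rose in 11 of 17 tested members and fell in 1. TNFAIP6, a hyaluronan-binding protein, had 2 counts in PBS and 59.8, 59.2 and 61.3 CPM in SPL, a ratio of 1484-fold (95% interval 410.3 to 12256). MMP9 (gelatinase B) also had 2 counts in PBS and stood at 36.9, 32.3 and 31.3 CPM in SPL. THBS1 (thrombospondin-1) rose from 0.704, 0.529 and 0.656 CPM to 59.1, 48.3 and 49.6 CPM. F3 (tissue factor), which starts coagulation, and THBD (thrombomodulin), which opposes it, both rose, from 58.8 ± 1.65 and 277 ± 7.45 CPM to 135 ± 5.03 and 760.5 ± 42.2 CPM. The member that fell was SERPINB2 (plasminogen activator inhibitor-2), with the largest fall among called protein-coding genes of at least 5 CPM, from 30.3, 37.8 and 40.4 CPM to 1.47, 1.8 and 1.93 CPM (log2 fold change -4.38 ± 0.20, adjusted p = 2.11e-11). Among 18 adhesion genes 5 rose and 3 fell. VCAM1, bound by the integrin α4β1, had no count in PBS and 5.17, 3.67 and 6.0 CPM in SPL, at least 81.1-fold higher, while the integrin chain ITGA4 fell from 85.3, 74.1 and 71.4 CPM to 36.7, 32.8 and 35.7 CPM. SELPLG, the ligand of P-selectin with which monocytes roll on endothelium, fell from 74.7, 73.1 and 70.8 CPM to 18.7, 17.8 and 18.5 CPM (log2 fold change -1.99 ± 0.11, adjusted p = 1.21e-10).

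In the list of apoptosis and survival, 4 of 21 tested members rose and 1 fell, beside 7.76% and 3.7% of all tested genes. BCL2A1, an NF-κB-dependent survival protein, rose from 0.384, 0.529 and 0.775 CPM to 31.2, 31.5 and 27.2 CPM, 52.2-fold. BCL2, its relative, fell from 183, 169.7 and 164 CPM to 55.3, 50.9 and 57.2 CPM (log2 fold change -1.66 ± 0.11, adjusted p = 2.90e-09). Granule and antimicrobial proteins rose in 4 of 14 members and fell in 1. The alarmins S100A8 and S100A9 rose 2.94-fold and 3.1-fold, MPO (myeloperoxidase) fell from 9.85, 10.5 and 10.2 CPM to 3.9, 4.31 and 4.41 CPM, and ELANE (neutrophil elastase) was at 1555 ± 83.7 and 1111 ± 80.2 CPM and was not called. For complement, 4 of 15 rose and 1 fell, with C3, the central component, at 61.2, 59.3 and 55.3 CPM in PBS and 319.9, 323 and 293 CPM in SPL. C1S fell from 2.57 ± 0.324 CPM to 1.02 ± 0.286 CPM (log2 fold change -1.32 ± 0.31, adjusted p = 0.00333). Its call was lost in 4 of the 6 fits without 1 library, with an adjusted p of up to 0.0211, while its log2 fold change stayed between -1.57 and -1.18.

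Most monocyte markers were not called. Of 18 tested, 3 rose, 0 fell and 15 were not called, with a median log2 fold change of -0.07. Over all tested genes 7.76% rose and 3.7% fell. Among the 3 were MPEG1 (perforin-2), from 14.6, 10.9 and 8.53 CPM to 153, 125 and 126 CPM, and SPI1 (PU.1), from 456, 469 and 487 CPM to 1009, 1035 and 961 CPM (log2 fold change 1.09 ± 0.13, adjusted p = 3.32e-06), close to the threshold on fold. Of 13 genes of progenitors and leukaemic cells 2 rose and 3 fell. TERT, the catalytic chain of telomerase, fell from 32.4, 31.2 and 28 CPM to 4.6, 3.48 and 3.52 CPM, 7.88-fold (log2 fold change -2.98 ± 0.20, adjusted p = 2.79e-09). MYB, a factor of immature blood cells, fell from 458, 452 and 459 CPM to 175, 178 and 189 CPM, and GFI1, a repressor of myeloid genes, from 402, 392 and 389 CPM to 127, 135 and 126 CPM. MYC was at 208 ± 6.63 CPM in PBS and 108 ± 0.206 CPM in SPL (log2 fold change -0.95 ± 0.09, adjusted p = 1.57e-07) and missed the threshold on fold. BCL6, a repressor of transcription, rose 13.4-fold. Among 26 genes of replication and mitosis 1 rose and 0 fell, CDKN1A (p21), an inhibitor of the cell cycle, from 59.4, 60.4 and 64.6 CPM to 289, 302 and 283 CPM. The helicase genes MCM3, MCM4 and MCM6 had log2 fold changes of -0.60 ± 0.07, -0.50 ± 0.06 and -0.50 ± 0.08, and MKI67 one of 0.38 ± 0.26, all under the threshold on fold.

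Further falls came from genes outside these lists. CA2 (carbonic anhydrase 2) made the largest loss in CPM, from 1920.5, 1923 and 1939.8 CPM to 244, 268 and 266 CPM (log2 fold change -2.89 ± 0.13, adjusted p = 1.83e-11). HAL, the histidine ammonia-lyase, and NFE2, a factor of erythroid cells and platelets, fell 10.8-fold and 7.21-fold. RET, a receptor tyrosine kinase, fell from 736, 679.5 and 649 CPM to 167, 169 and 153 CPM (log2 fold change -2.08 ± 0.10, adjusted p = 2.87e-11), and CITED4, a transcriptional co-regulator, from 1006, 1019.8 and 1096 CPM to 346, 352 and 363 CPM. SERPINB10, a neighbour of SERPINB2 on chromosome 18, fell 5.95-fold. CACNA2D3, GPA33, OXCT2 and MTARC1 complete the 10 largest falls among protein-coding genes of at least 5 CPM, at 6.79-fold, 6.62-fold, 5.9-fold and 5.85-fold. On the side of the rises, CMKLR1, a receptor of chemerin and resolvin E1, had 3 counts in PBS, all in 1 library, and 15.6, 12.9 and 13.2 CPM in SPL, and without that library, PBS replicate 2, its log2 fold change was 10.76 instead of 7.66. TNFAIP2, an NF-κB target, was among the 5 largest gains, from 216, 218 and 207 CPM to 2153, 2141 and 2116 CPM.

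Among long non-coding RNAs the largest fitted rise was that of a microRNA host. MIR3142HG, the host transcript of miR-146a, had no count in PBS and 17.9, 16.6 and 19.5 CPM in SPL, at least 296-fold higher. Without a PBS count the size of this rise, and so its rank, is uncertain. MIR155HG, the host transcript of miR-155, rose from 3.78, 6.35 and 4.29 CPM to 14.1, 12.4 and 13.4 CPM (log2 fold change 1.46 ± 0.20, adjusted p = 1.57e-05). Both microRNAs are known to be induced by TLR signals, miR-146a as a brake on IRAK1 and TRAF6. The mature forms were not measured, and their sequences are shown because they lie within the host genes that rose (RefSeq, GRCh38.p14, chr5:160485372-160485393 and chr21:25573983-25574006, plus strand). Capitals mark the seed, bases 2 to 8, and the seeds differ.
hsa-miR-146a-5p: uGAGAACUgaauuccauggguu
hsa-miR-155-5p: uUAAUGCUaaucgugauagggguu
IRAK1, a known target of miR-146a, was at 488 ± 11.8 CPM in PBS and 362 ± 24.8 CPM in SPL (log2 fold change -0.43 ± 0.08, adjusted p = 5.95e-04), and TRAF6 at 20.2 ± 0.346 and 21.7 ± 2.32 CPM, and neither was called. Of 9 tested host genes 4 rose and 1 fell, MIR9-3HG, from 43.3, 44.8 and 44.7 CPM to 9.07, 10.6 and 9.31 CPM. The transcript ENSG00000287097 on chromosome 6 had no count in PBS and 11.3, 10.7 and 9.86 CPM in SPL. Of the lower transcripts, ENSG00000227706, also on chromosome 6, lost the most, from 1444, 1378 and 1318 CPM to 291, 304 and 269.6 CPM (log2 fold change -2.26 ± 0.10, adjusted p = 8.08e-12), and ENSG00000269243 on chromosome 19 fell from 33.6, 29.6 and 33.6 CPM to 2.36, 3.61 and 3.17 CPM, where 49.9% of the exonic bases lie in exons of other genes.

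The method of isolation was compared at equal species and dose, SPL against SUC. Only 1 gene, or 0.00581% of the tested genes, was called, PLIN2, and DESeq2 called 2 genes. An unadjusted p of at most 0.05 was held by 1000 of the 17198 tested genes. Some genes pass that threshold even when none differ, so this count alone shows no difference. PLIN2 was at 250.01, 216 and 203 CPM in SPL and at 104, 84.4 and 115 CPM in SUC, a log2 difference of 1.14 ± 0.12 (SE; adjusted p = 5.78e-04). The SPL libraries lay above those of SUC, which in turn lay above those of PBS. Of the 15 tested genes of lipid droplets and PPAR targets only 1, PLIN2, was called against SUC. CD36, ACSL1, ANGPTL4 and CPT1A were not, with log2 differences of 0.08, 0.21, 0.78 and 0.41. PDK4, another member of that list, was at 10.5, 7.34 and 8.89 CPM in SPL and 2.12, 2.0 and 2.51 CPM in SUC. Its libraries did not overlap either, and its log2 difference of 2.01 ± 0.27 (SE; adjusted p = 0.0121) missed the threshold on p, which it passed with DESeq2 (adjusted p = 3.41e-09). In edgeR it also passed with only the 2 groups (adjusted p = 0.00297) and without the low-count filter (1.57e-10). It missed with the replicate block (0.038) and was called in 0 of 6 fits without 1 library, with an adjusted p of up to 0.191. IL1B was at 666, 498 and 633 CPM in SUC, all below SPL, and its log2 difference of 0.52 ± 0.13 (SE; adjusted p = 0.718) was not called. CXCL8, with a difference of 0.14 ± 0.12 (SE; adjusted p = 0.894), and TNF, with one of -0.17 ± 0.12 (SE; adjusted p = 0.882), were not called either, and their libraries overlapped. The biological coefficient of variation was 0.133 in SUC. A p that misses the threshold does not show that both preparations act alike.

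SPL was also set beside EPL, which differs in species and in dose, so that the effects of these cannot be told apart. At the same thresholds 3 genes (0.0174%) were higher in SPL and 18 (0.105%) lower. Of these 21 genes 20 were also called against PBS. PLIN2 was at 83.5, 71.2 and 79.8 CPM in EPL and was higher in SPL by 1.51 ± 0.12 (SE; adjusted p = 1.13e-05) on the log2 scale. PDK4 was at 0.853, 0.892 and 0.812 CPM in EPL, close to the lowest of the PBS libraries, and differed from SPL by 3.37 ± 0.31 (SE; adjusted p = 5.52e-05). NMNAT2, a NAD-synthesising enzyme, was also higher in SPL than in EPL, although at only 0.83, 0.644 and 0.758 CPM, and had fallen against PBS. Its call against EPL was lost in 6 of 6 fits without 1 library (log2 differences of 2.48 to 3.39, adjusted p of up to 0.06), with the replicate block (adjusted p = 0.0164) and with only the 2 groups (adjusted p = 0.0426). Of the 18 genes lower in SPL, all but ABCA1 had risen against PBS. IL12B was at 17.6, 21.9 and 19.9 CPM in EPL, all above SPL, a difference of -1.54 ± 0.21 (SE; adjusted p = 0.00222). TNFRSF9 was at 49.2, 52.6 and 49.5 CPM in EPL, with a difference of -1.14 ± 0.13 (SE; adjusted p = 4.19e-04), and LAMP3, a protein of mature dendritic cells, at 42.9, 47.8 and 43.6 CPM with -1.28 ± 0.14 (SE; adjusted p = 4.14e-04). VCAM1, IL33, STAT4 and TRAF1 were lower in SPL by the same thresholds, with log2 differences of -1.16, -1.47, -1.06 and -1.03. ABCA1, which exports cholesterol, was called against EPL and not against PBS, at 43.1, 38.4 and 37.7 CPM in SPL, 86.9, 125 and 116 CPM in EPL and 33.1, 29.2 and 27.2 CPM in PBS. IL1B and CXCL8 were not called, with log2 differences of -0.65 ± 0.13 (SE; adjusted p = 0.0172) and -0.41 ± 0.12 (SE; adjusted p = 0.142), while TNF was higher in SPL by 0.70 ± 0.12 (SE; adjusted p = 0.0079), under the threshold on fold. The libraries of SPL and EPL did not overlap for these 3 genes. When 1 library was left out, 3 to 11 genes were called lower instead of 18, and CALCRL, LAMP3, TNFRSF9, PLIN2 and PDK4 were called in all 6 such fits.

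**Figure D5:**
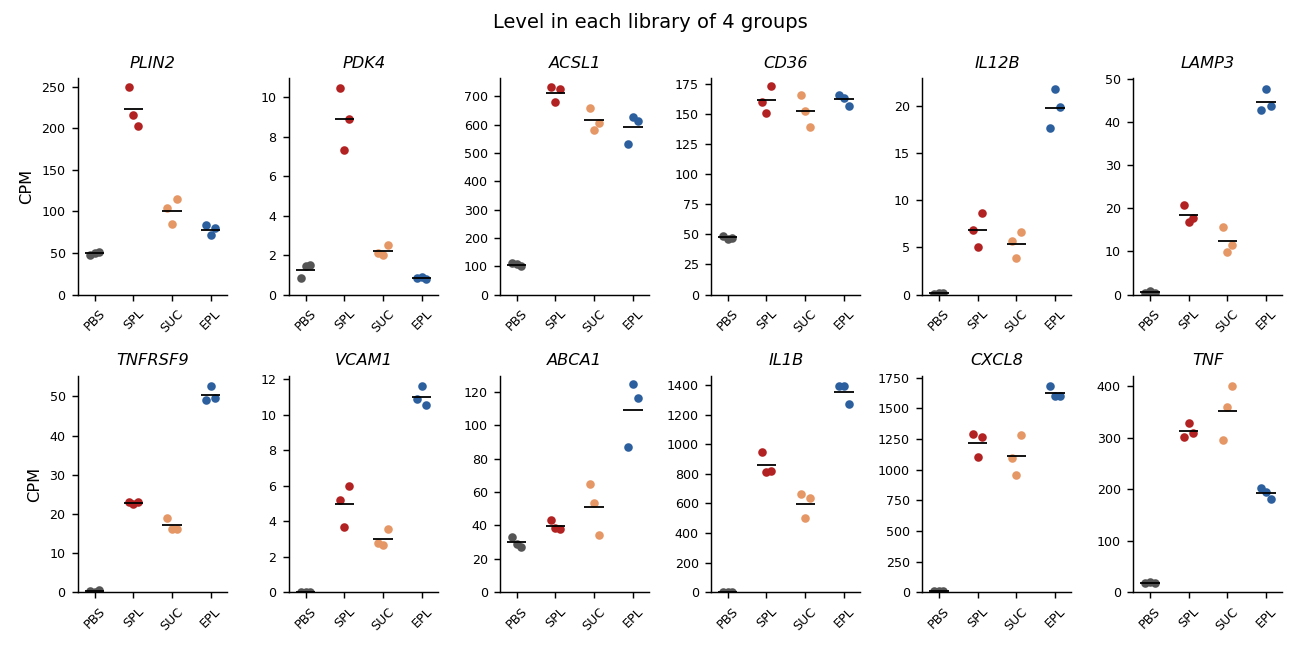
Points give the CPM of 12 genes in each library of PBS, SPL, SUC and EPL, and short lines the group means, each panel with its own axis from 0. PLIN2 and PDK4 stand highest in SPL, IL12B, LAMP3, TNFRSF9, VCAM1 and ABCA1 highest in EPL, and CD36 at nearly the same level in the 3 groups with BEVs.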

How the data were processed

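For 15 libraries of THP-1 RNA, 3 in each of 5 groups, the authors deposited raw read counts per gene for 60286 genes, of which 23219 had no count in any library. Per the labels, the processing used HISAT2 2.1.0, StringTie 1.3.3b, featureCounts, DESeq 1.28.0 and FastQC 0.11.5 on hg38; no source used here gives the annotation or strand setting of the counting, so that reads of a gene and of an antisense partner cannot be told apart. Groups were taken from the labels.

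Genes with low counts were removed with filterByExpr, which left 17198, and libraries were scaled by TMM. The filter used all groups, so a gene silent in PBS was tested where groups with BEVs held enough counts. For lists with such genes, shares and medians over tested members depend in part on the filter. All 15 libraries were fitted together without a block in edgeR 4.0.16 (R 4.3.3, quasi-likelihood F test) and p-values were adjusted by Benjamini-Hochberg over all tested genes. The SE is the log2 fold change divided by the square root of F. For genes without a count in PBS the fold is a lower bound against 3 counts over the 3 PBS libraries, and for 1 to 3 counts the ratio has an exact binomial 95% interval. Both cover counting error only. The fit was tested on simulated data for SPL against PBS, with 100 genes changed by 2-fold and 100 by 4-fold. At 2-fold 28% were called and 58% passed the threshold on p, at 4-fold 90% were called, and 0 unchanged genes were called. A gene that was not called may therefore still differ by about 2-fold.

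The gene lists and the members described were chosen with earlier results of these data known. Named are the genes of the study's qRT-PCR, members of a list (first the up to 4 called with the largest rise and fall at a mean of at least 1 CPM), the 10 largest rises and falls among protein-coding genes of at least 5 CPM, the 5 largest gains and losses in CPM, the genes highest in SPL without a PBS count, the largest differences from SUC and EPL, and lncRNAs. Positions came from GENCODE 44 (hg38; 17174 genes matched), promoters and miRNAs from RefSeq. The study's methods name no pairing, so the replicate numbers were not used as pairs. The deviations of same-numbered libraries from their group means had r of 0.0368, 0.012 and -0.00215 for SPL and PBS. They were 0.0931, -0.0115 and 0.0322 for SPL and SUC, and -0.0641, -0.0319 and 0.0358 for SPL and EPL. DESeq2 1.42.0 and other settings are alternatives. A few genes are not reported here.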

Additional observations from a re-analysis of the deposited data

Results flagged for a closer look

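Against the other preparations, a few genes differed between groups by the test of the difference itself (edgeR's quasi-likelihood test). PLIN2 was higher in SPL than in SUC by 1.14 on the log2 scale and higher than in EPL by 1.51, in 3 of 3 SPL libraries above each of the other libraries. PDK4 was higher in SPL than in EPL by 3.37, at 10.5, 7.34 and 8.89 CPM against 0.853, 0.892 and 0.812 CPM. Both genes were called in all 6 fits without 1 library of SPL or EPL.

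Lower in SPL than in EPL were TUBB2A, a tubulin, by a log2 difference of -1.55, IL12B (-1.54), IL33 (-1.47), CALCRL, a receptor of adrenomedullin (-1.47), and ABCA1 (-1.46). For each of these 5 genes the 3 SPL libraries lay below the 3 EPL libraries. CALCRL was called in 6 of the 6 fits without 1 library, TUBB2A and IL12B in 3, ABCA1 in 1 and IL33 in 0. TUBB2A has near-identical paralogs, so that its counts are uncertain. Species and dose of the vesicles change together between SPL and EPL and cannot be told apart.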

How the results depend on the processing

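For SPL against PBS, the counts of higher and lower genes were 1395 and 642 with DESeq2, 1343 and 627 with RLE size factors, 1206 and 862 with library size only, 1480 and 669 without the low-count filter, 1212 and 558 at a mean of at least 1 CPM, 1333 and 752 with only the 2 groups and 1552 and 787 at an adjusted p of 0.05, beside 1335 and 637. They moved by over 1.5 times with no fold threshold, to 2284 and 1830, and with glmTreat, which tests against a 2-fold change, to 817 and 186. Without 1 library the counts ran from 1234 to 1298 and from 549 to 598. For SPL against SUC, 2 genes instead of 1 were called with DESeq2, at an adjusted p of 0.05, without the low-count filter and with only the 2 groups, 0 with glmTreat, and 1 to 2 without 1 library, the 2 without SUC replicate 1. For SPL against EPL, the 3 higher genes became 1 with glmTreat, 16 with no fold threshold and 5 without the low-count filter. The 18 lower genes became 39 with DESeq2, 35 at an adjusted p of 0.05, 0 with glmTreat, 50 with no fold threshold, 38 without the low-count filter and 3 (without SPL replicate 2) to 11 (without EPL replicate 1 or 3) when 1 library was left out. Where 1 library was left out, its group kept 2. The cause of these moves was not tested beyond the construction of the thresholds.

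With the replicate block, 1315 genes were higher and 623 lower in SPL than in PBS, 1 gene differed from SUC, and 2 genes were higher and 18 lower than in EPL. The labels share only a number, and the block is no sign of pairing.

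Library size only shifted the median log2 fold change of all genes from -0.01 to -0.12 and the share of higher genes among those called from 67.7% to 58.3%. Under it GAPDH changed its sign, from 0.049 to -0.065, at no call in either. Of 2467 values for 190 named genes, 2435 kept their direction and side of the threshold and 31 lost the call, in CASP1, NLRP1, SOCS2, CISH, HLA-DPA1, CIITA, SLC30A1, TFEB, C1S, SPI1 and ETV6. These values cover DESeq2, the settings of scaling, filter, 2 groups and replicate block, and the fits without 1 library. They leave out glmTreat, which lowered the counts the most, and the changed thresholds. Of the counts of list members, 731 stayed within 1.5 times and 37 did not. Genes with few PBS counts have uncertain folds, whose size is limited by depth.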
